A study of Homo sapiens with 8 samples.

Results

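APC2 and 9 other genes of the canonical Wnt pathway were followed across 8 microarrays of human embryonic kidney (HEK293T) cell lines. The other genes were APC, AXIN1, AXIN2, DKK1, DKK3, SFRP1, SFRP2, WIF1, and CTNNB1. Members were the non-control probes whose RefSeq transcript carries 1 of these 10 symbols, and this gave 14 probes for the 10 genes out of 34127 probes and 19483 named genes. APC2 was chosen on its signal in MBD-TET1-CDwt against empty vector, so its values in the MBD-TET1-CDwt cells are given as a description without a test. The remaining genes were taken for their place in the pathway.

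Each array held Cy3-labeled cRNA of 1 stable transformant that had been isolated as an individual blasticidin-resistant colony, so every array is 1 clone. All 8 lines carry a plasmid of the same backbone and differ in the insert. Empty vector #1 and #2 carry no insert. TET1-CDwt #2 and #5 express the catalytic domain of TET1, an enzyme that oxidizes 5-methylcytosine, with no targeting domain. MBD-TET1-CDwt #3 and #10 express this domain joined to the methyl-CpG-binding domain of MBD2, and MBD-TET1-CDmut #9 and #10 express the same fusion with a substitution that inactivates the catalytic domain. The question of the design was which genes change when the active domain is brought to methylated CpG sites. Results are for single clones of an adenovirus-transformed line, and 2 clones per vector set the precision.

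In cells without a Wnt signal, a cytoplasmic destruction complex built on the scaffolds APC and AXIN1 marks β-catenin, the product of CTNNB1, for degradation. A Wnt ligand that binds a Frizzled receptor and an LRP co-receptor disables the complex, and β-catenin then acts with TCF/LEF factors on target genes, of which AXIN2 is a classical one that also feeds back on the pathway. Secreted antagonists act earlier: SFRP proteins and WIF1 bind the ligands, and DKK1 blocks the LRP co-receptors. Promoters of several of these antagonists are known to be methylated in tumors and cancer cell lines.

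The promoter windows of APC2 are shown first. The methyl-CpG-binding domain recognizes methylated CpG sites, and the windows of this gene differ in how many CpG sites they hold. The sequences are those of RefSeq on GRCh38.p14, from 250 bases before to 50 bases after an annotated start, read 5′ to 3′ on the strand of the gene, with each CpG dinucleotide (the letters CG, which read the same on both strands) in capitals. The upstream window of APC2 lies at chr19:1449871-1450170 and the downstream window at chr19:1452734-1453033, both on the plus strand. The window of WIF1, the member whose signal was lowest in the MBD-TET1-CDwt clones relative to empty vector among the tested probes, lies at chr12:65121256-65121555 on the minus strand.
APC2 upstream: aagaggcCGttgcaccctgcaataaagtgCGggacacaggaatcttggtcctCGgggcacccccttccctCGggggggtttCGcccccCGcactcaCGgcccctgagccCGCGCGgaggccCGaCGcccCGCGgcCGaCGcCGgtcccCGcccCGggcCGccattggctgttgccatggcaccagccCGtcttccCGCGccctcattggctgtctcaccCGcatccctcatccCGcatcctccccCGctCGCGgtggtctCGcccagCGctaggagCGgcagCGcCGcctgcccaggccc
APC2 downstream: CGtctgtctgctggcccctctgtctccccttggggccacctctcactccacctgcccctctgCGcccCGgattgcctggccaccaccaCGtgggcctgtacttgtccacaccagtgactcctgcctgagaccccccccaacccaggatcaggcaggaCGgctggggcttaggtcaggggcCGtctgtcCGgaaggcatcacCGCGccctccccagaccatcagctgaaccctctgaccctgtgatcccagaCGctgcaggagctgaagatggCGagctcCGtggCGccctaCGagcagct
WIF1: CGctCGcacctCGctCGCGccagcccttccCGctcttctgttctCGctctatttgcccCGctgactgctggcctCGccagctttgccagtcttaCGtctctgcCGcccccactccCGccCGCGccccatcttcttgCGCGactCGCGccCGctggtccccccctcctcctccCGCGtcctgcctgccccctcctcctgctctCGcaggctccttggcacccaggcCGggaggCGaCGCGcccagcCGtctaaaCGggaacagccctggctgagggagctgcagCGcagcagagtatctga
The upstream APC2 window holds 33 CpG dinucleotides, and 84.4% of the 35114 RefSeq promoter windows of the same length hold at most this number. The downstream window holds 14, which is also the median over all windows, and the WIF1 window holds 29. The quartiles over all windows were 4 and 28, and 96% of them hold at least 1 CpG. Of the other members with a window, AXIN1 held 44, CTNNB1 39, DKK1 20, SFRP2 15, and APC 14 and 23 in its 2 windows. All 9 windows of the 7 members that had one therefore reached the median. Which of its starts APC2 uses in these cells, and whether any of these CpG sites is methylated in them, was not measured on the arrays.

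Values below are normalized log2 signals, meaning the log2 of the deposited intensity minus the 75th percentile of the array, so that 0 is the 75th percentile and a difference of 1 is a 2-fold difference. A probe is compared with itself between arrays and never with another probe. Between 63.2% and 68.2% of probes were well above background on an array, the 75th percentile lay between intensities of 328 and 527, and no spot was saturated. The 7 HEK293T markers (PAX2, LHX1, VIM, KRT8, KRT18, CDH2, and NEFL) were well above background on all 8 arrays, and KLK3, which marks the prostate line LNCaP used elsewhere in the study, was so on 0. The 2 TET1 probes ranged from 2.61 to 2.94 and from -1.55 to -0.70 over the 8 arrays, and the 2 MBD2 probes from 1.25 to 1.65 and from -5.21 to -2.57. Whether these probes lie within the expressed codons is not given in the sources used here, so they do not check the constructs. Empty vector and TET1-CDwt were on slide 1 and both fusions on slide 2, so slide and construct cannot be told apart in any comparison of a fusion with empty vector. Over the 9137 probes detected on no array, MBD-TET1-CDwt lay above empty vector by a median of 0.37 and MBD-TET1-CDmut by 0.35, whereas the median was -0.07 for TET1-CDwt and 0.03 between the fusions.

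APC2 encodes a relative of APC that binds β-catenin and is best known from neural tissue. Its probe (NM_005883) was well above background on all 8 arrays. The signal was -2.40 in empty vector #1 and -2.28 in #2, and -1.27 in TET1-CDwt #2 and -1.99 in #5. In MBD-TET1-CDwt it was -0.25 in #3 and 2.45 in #10, and in MBD-TET1-CDmut it was -1.87 in #9 and -2.28 in #10. Both MBD-TET1-CDwt clones therefore stood above the other 6, with #10 far above #3. As intensities before scaling, #10 gave 1789 and #3 gave 294, against 67.1 to 219 on the other 6 arrays.

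From lowest to highest the APC2 means were -2.34 ± 0.08 in empty vector, -2.07 ± 0.29 in MBD-TET1-CDmut, -1.63 ± 0.51 in TET1-CDwt, and 1.10 ± 1.91 in MBD-TET1-CDwt (SD, n = 2 clones each). The arrays of the first pair in this order overlap, and so do those of MBD-TET1-CDmut and TET1-CDwt. The mean in MBD-TET1-CDwt was 3.44 above that in empty vector, or 10.8-fold, and 3.17 above that in MBD-TET1-CDmut on the same slide, or 9.01-fold. These comparisons share the MBD-TET1-CDwt arrays on which APC2 was chosen, and no test is given for them. Without #10 the difference from empty vector was 2.09, and without #3 it was 4.79. The clones of MBD-TET1-CDwt were 2.70 apart for APC2, a gap that 0.706% of the 22530 tested probes reached or passed in these clones, against a median gap of 0.371.

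The means of the remaining APC2 comparisons were not used to choose it, except that they share the empty vector arrays. Their standard error was not independent of it, since limma pools the spread of all 4 groups and the MBD-TET1-CDwt clones had the widest, an SD of 1.91. TET1-CDwt was 0.71 above empty vector (standard error 0.78, 95% interval -1.13 to 2.55, limma adjusted p = 1), with both TET1-CDwt clones above both empty vector clones. MBD-TET1-CDmut was 0.26 above empty vector (standard error 0.78, 95% interval -1.58 to 2.10, limma adjusted p = 1), and its clone #10 lay level with empty vector #2. Neither difference passed the test. With normexp background correction they were -0.31 and -0.18, where the median of all tested probes moved to -0.43 and -0.19, so that relative to this median APC2 lay 0.11 and 0.01 above empty vector. A p that misses the threshold does not show that APC2 is alike in the 3 groups.

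**Figure D1:**
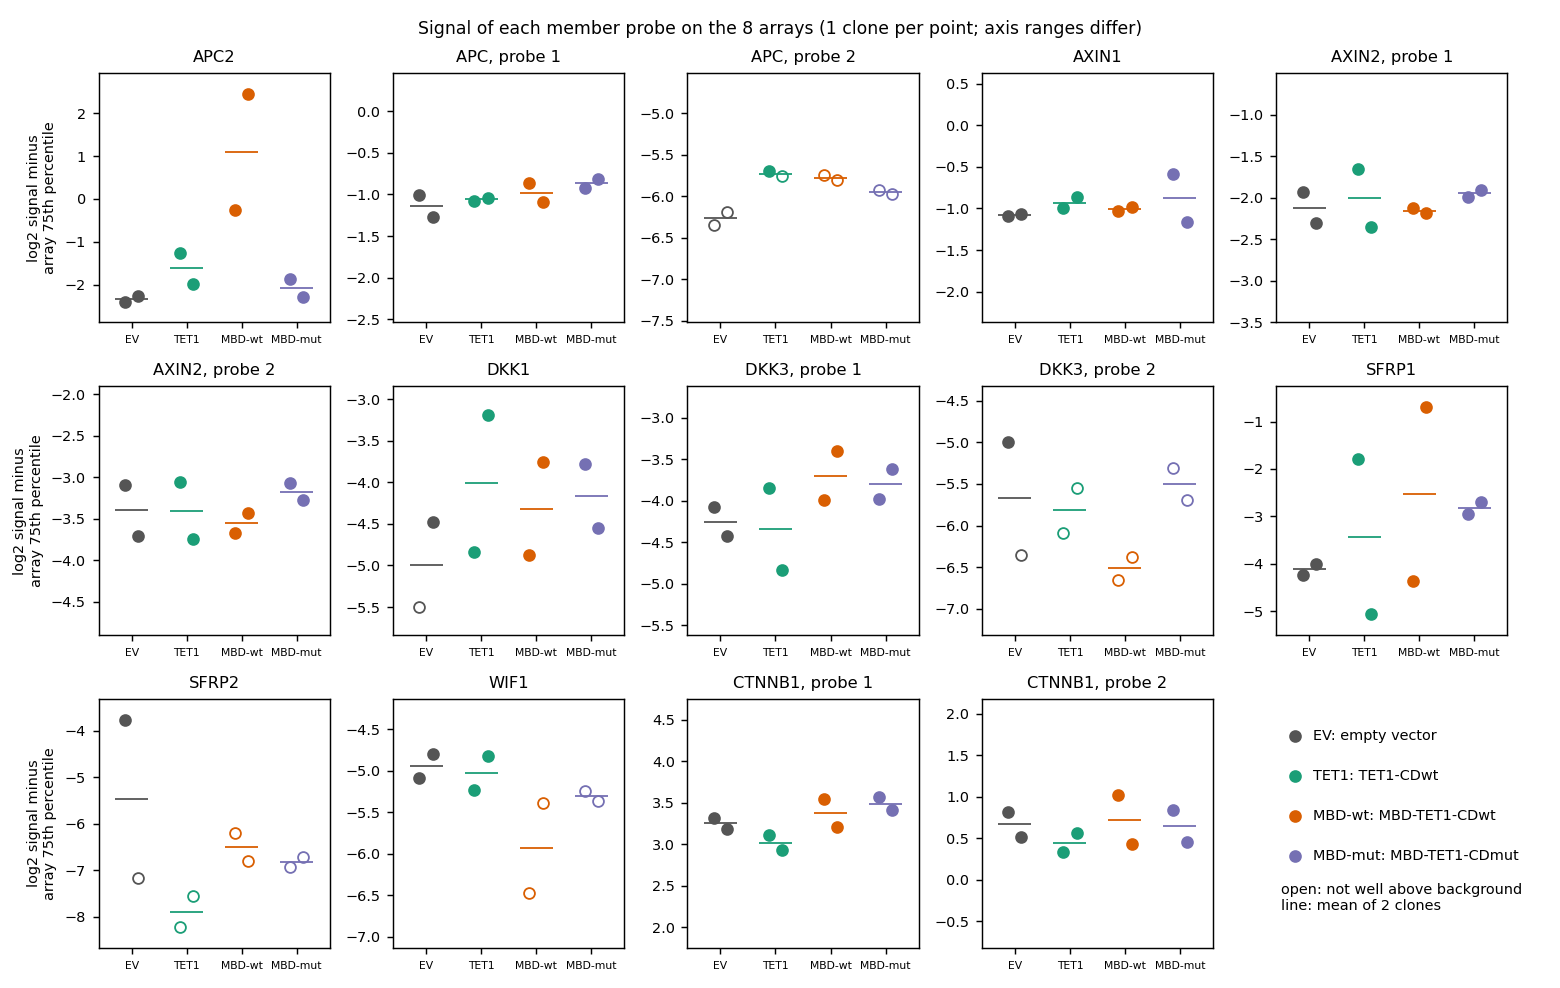
Normalized log2 signal of the 14 member probes, 1 panel each, with the 4 groups on the x axis, 1 point per clone, and a line at the mean of the 2 clones. Open points were not well above background on that array. APC2 reached 2.45 in MBD-TET1-CDwt #10 and -0.25 in #3, above the other 6 arrays, whereas the 2 clones of a group lay far apart for SFRP1.

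Among the scaffolds of the destruction complex, APC (NM_001127511) kept within a range of 0.46 over the 8 arrays, from -1.27 in empty vector #2 to -0.81 in MBD-TET1-CDmut #10. Set against empty vector, MBD-TET1-CDwt differed by 0.16, TET1-CDwt by 0.08, and MBD-TET1-CDmut by 0.28 (standard error 0.18 each, limma adjusted p = 0.921, 1, and 1). The clones of the former 2 groups overlapped those of empty vector, and those of MBD-TET1-CDmut did not. A second APC probe (NM_000038), the mean of 10 spots, was well above background in TET1-CDwt #2 alone, at -5.70, and did not enter the test. The spots of this dim probe had an SD of 0.33 to 0.57 within an array.

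AXIN1 (NM_003502), the limiting scaffold of the complex, gave -1.09 and -1.07 in empty vector, -0.998 and -0.86 in TET1-CDwt, -1.03 and -0.98 in MBD-TET1-CDwt, and -0.58 and -1.16 in MBD-TET1-CDmut. Both MBD-TET1-CDwt clones and both TET1-CDwt clones lay above empty vector, by small margins. Set against empty vector, MBD-TET1-CDwt differed by 0.07 (95% interval -0.46 to 0.60, limma adjusted p = 0.972) and TET1-CDwt by 0.15 (95% interval -0.38 to 0.68, limma adjusted p = 1). MBD-TET1-CDmut held both the highest array and the lowest.

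AXIN2, the feedback scaffold and target gene, had 2 probes for the same transcript (NM_004655). The first lay between -2.35 and -1.65 and the second between -3.74 and -3.06, with ranges of 0.70 and 0.69. On the second probe empty vector gave -3.09 and -3.71, and TET1-CDwt gave -3.06 and -3.74, the highest and the lowest of the 8 arrays. The active fusion gave -3.67 and -3.43 and the inactive fusion -3.07 and -3.28. Against MBD-TET1-CDmut, both MBD-TET1-CDwt clones were lower on each probe, with differences of -0.21 and -0.38 (standard errors 0.27 and 0.30, limma adjusted p = 0.908 and 0.865).

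CTNNB1 (NM_001904), which encodes β-catenin, was measured by a probe of 10 spots whose SD within an array was 0.06 to 0.08. It gave 3.32 and 3.19 in empty vector, 3.11 and 2.93 in TET1-CDwt, 3.55 and 3.21 in MBD-TET1-CDwt, and 3.57 and 3.41 in MBD-TET1-CDmut. TET1-CDwt lay below empty vector in both clones and MBD-TET1-CDmut above it in both, with no overlap, whereas MBD-TET1-CDwt overlapped. The differences were -0.24, 0.24, and 0.13 (standard error 0.19 each, limma adjusted p = 1, 1, and 0.94). On the second probe (NM_001098210) they were -0.22, -0.02, and 0.06 (standard error 0.26 each, limma adjusted p = 1, 1, and 0.982), and the clones overlapped in each of these comparisons. With normexp background correction, and relative to the median of all tested probes, the first probe differed by 1.11, 1.03, and 1.33 in the same order. The second differed by 0.50, 0.34, and 0.71. The direction of CTNNB1 in TET1-CDwt thus depended on the background correction. CTNNB1 mRNA says nothing of the amount of β-catenin protein, which the destruction complex controls.

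Of the secreted antagonists, SFRP1, a decoy that shares the ligand-binding domain of Frizzled receptors, varied most between clones. Its probe (NM_003012) was well above background on all 8 arrays. It gave -4.23 and -4.00 in empty vector, and -2.95 and -2.71 in MBD-TET1-CDmut. In TET1-CDwt it was -1.78 in #2 and -5.07 in #5, and in MBD-TET1-CDwt -4.37 in #3 and -0.69 in #10. The highest array and the lowest array were thus in groups that also held a clone at the other end, and the gap between clones was 3.29 in TET1-CDwt and 3.68 in MBD-TET1-CDwt, against 0.23 in empty vector and 0.24 in MBD-TET1-CDmut. Gaps this wide were found for 0.146% of tested probes in TET1-CDwt and 0.186% in MBD-TET1-CDwt. The 8 to 10 spots of the probe kept on an array had an SD of 0.05 to 0.25, which is the spread within an array and not between clones.

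As a mean of 2 clones SFRP1 was 3.003-fold above empty vector in MBD-TET1-CDwt (log2 difference 1.59, standard error 1.34, limma adjusted p = 0.902), a value that was -0.25 without #10 and 3.43 without #3. It was 2.44-fold above empty vector in MBD-TET1-CDmut, where both clones lay above both controls (log2 difference 1.29, standard error 1.34, limma adjusted p = 1). It was 0.69 above empty vector in TET1-CDwt (limma adjusted p = 1), a value that was -0.95 without TET1-CDwt #2. With normexp background correction, and relative to the median of all tested probes, the 3 vectors differed from empty vector by 0.17, 0.02, and -0.39 in the same order. The difference between the fusions, on 1 slide, was 0.30 (standard error 1.34, 95% interval -2.87 to 3.47, limma adjusted p = 0.975), and none of the SFRP1 differences passed the test.

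DKK1 (NM_012242) gave -4.48 in empty vector #2 and -5.50 in #1, the only array on which it was not well above background. It gave -4.84 and -3.18 in TET1-CDwt, -4.88 and -3.75 in MBD-TET1-CDwt, and -3.77 and -4.55 in MBD-TET1-CDmut. Every group overlapped empty vector. The means were 0.98, 0.67, and 0.83 above it (standard error 0.66 each, limma adjusted p = 1, 0.909, and 1). With normexp background correction, and relative to the median of all tested probes, these differences were -0.83, -0.72, and -0.16.

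DKK3, a secreted relative of DKK1 whose part in Wnt signaling is less clear, gave -4.08 and -4.43 in empty vector on its brighter probe (NM_015881). It gave -3.85 and -4.84 in TET1-CDwt, -3.99 and -3.41 in MBD-TET1-CDwt, and -3.98 and -3.63 in MBD-TET1-CDmut. All 4 fusion clones were above both empty vector clones. The difference was 0.56 for the active fusion and 0.45 for the inactive fusion (standard error 0.37 each, limma adjusted p = 0.874 and 1), and within slide 2 the fusions differed by 0.10 (95% interval -0.78 to 0.98, limma adjusted p = 0.969). With normexp background correction, and relative to the median of all tested probes, these differences were -0.61, -0.22, and -0.37. A dimmer DKK3 probe for the same transcript was well above background in empty vector #1 alone, at -4.99, and lay between -6.65 and -5.30 on the other 7, where it was not well above background. It did not enter the test.

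SFRP2 (NM_003013) was well above background on 1 array, empty vector #1, at -3.77. On the other 7 arrays it lay between -8.23 and -6.20, below the lowest signal called well above background, which was -6.01 to -5.51 depending on the array. The probe did not enter the test over all 8 arrays, and no fold is given from them. With empty vector #2 left out, #1 alone stood for the controls and was assumed to vary like the other groups. SFRP2 then entered the fit through #1 alone, the array on which it was high, so nothing is read from its limma call. With the dim signals at the detection floor, SFRP2 was at least 4.43-fold lower in TET1-CDwt than in that clone. This difference rests on 1 clone, and SFRP2 was not well above background in the other control.

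WIF1 (NM_007191) was well above background on the 4 arrays of slide 1 and on none of the 4 arrays of slide 2. It entered the fit through the groups of slide 1 alone, so nothing is read from its test against the fusions. The detection floor was -6.01 to -5.82 on slide 1 and -5.56 to -5.51 on slide 2, and its part in this split was not tested. It gave -5.09 and -4.80 in empty vector, -5.23 and -4.82 in TET1-CDwt, -6.47 and -5.38 in MBD-TET1-CDwt, and -5.24 and -5.37 in MBD-TET1-CDmut. The fusion clones were thus the lower ones, but for MBD-TET1-CDmut #9, which lay level with TET1-CDwt #2. With the signal of MBD-TET1-CDwt #3 raised to the detection floor and that of #10 as measured, WIF1 was at least 1.44-fold lower in MBD-TET1-CDwt, with empty vector as the reference. As measured, MBD-TET1-CDwt differed from empty vector by -0.98 (standard error 0.36, 95% interval -1.83 to -0.13, limma adjusted p = 0.721). The measured difference of the inactive fusion was -0.36 (standard error 0.36, 95% interval -1.21 to 0.49, limma adjusted p = 1). The fusions are set apart from empty vector by slide as well, and the part of the slide was not tested. Within slide 1, TET1-CDwt differed from empty vector by -0.08 (standard error 0.36, 95% interval -0.93 to 0.77, limma adjusted p = 1).

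**Figure D2:**
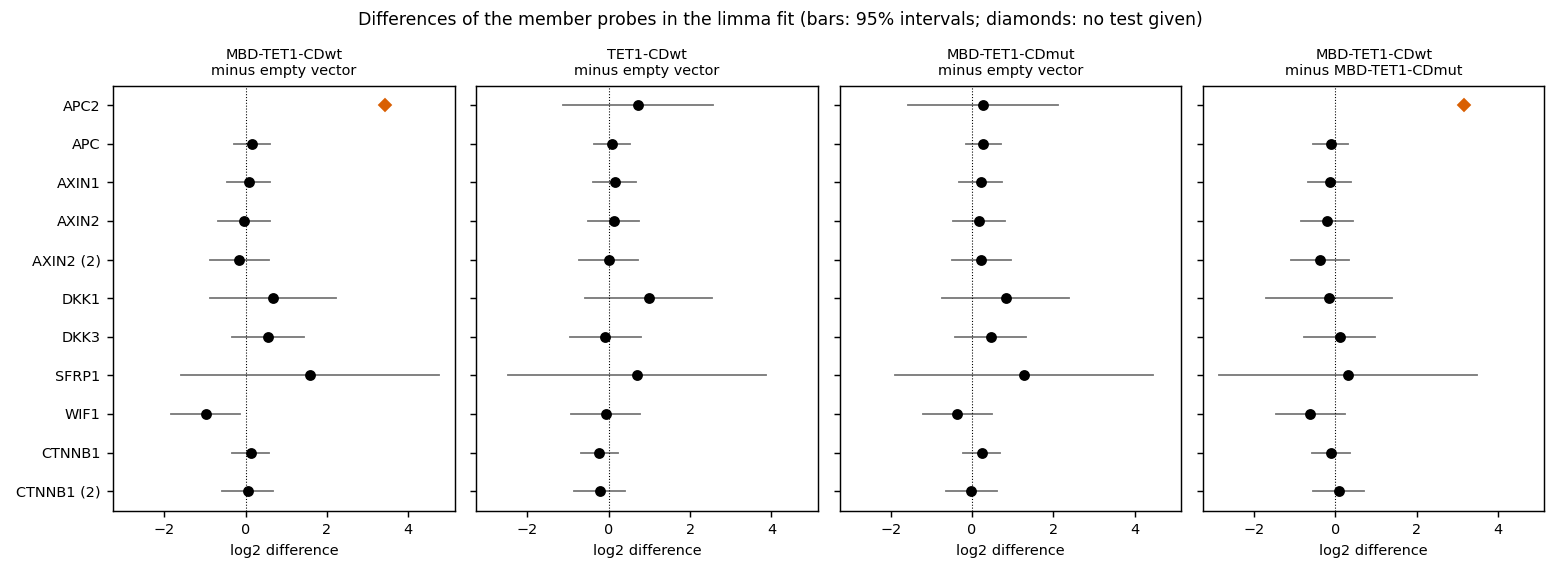
Log2 difference between group means for the 11 member probes in the limma fit, 1 panel per comparison, with 95% intervals as bars (a number 2 marks the second probe of a gene). APC2 at 3.44 and 3.17 is drawn as a diamond without an interval because it was chosen on these arrays. Of the tested values, the interval of WIF1 in MBD-TET1-CDwt against empty vector lies below 0 and all others include 0. WIF1 entered the fit through empty vector and TET1-CDwt alone, so nothing is read from this interval.

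Counted over the members by the brightest probe of each, 9 of the 10 could be counted against empty vector, since SFRP2 was not well above background on both arrays of any group. In MBD-TET1-CDwt 2 of the 9 were at least 2-fold higher, APC2 and SFRP1, and 0 were at least 2-fold lower, where 1.56% of all genes were higher and 1.05% lower. The arrays did not overlap for 4 of the 9, APC2, AXIN1, and DKK3 above and WIF1 below, against 29.9% of all genes. In TET1-CDwt 0 members were 2-fold higher or lower (all genes 0.349% and 0.391%) and 3 of 9 did not overlap (all genes 26.7%). In MBD-TET1-CDmut 1 member, SFRP1, was 2-fold higher and 0 were lower (all genes 0.492% and 0.373%), and 5 of 9 did not overlap (all genes 35.2%). Between the fusions 1 of 8, APC2, was higher and 0 were lower (all genes 1.62% and 1.39%), and 2 of 8 did not overlap (all genes 35.5%). APC2 entered these counts through the choice of members, so nothing is read from its place in them.

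limma called 0 of the 8 members other than APC2 at an adjusted p under 0.05 in each of the 4 comparisons. Over all genes it called 0.132% in MBD-TET1-CDwt against empty vector, 0% in each of the 2 other comparisons with empty vector, and 0.125% between the fusions. At an unadjusted p under 0.05 it named 1 of the 8, WIF1, in MBD-TET1-CDwt against empty vector and 0 in the other comparisons, where 6.29% of all genes passed that threshold in the first, 1.85% in TET1-CDwt, 2.12% in MBD-TET1-CDmut, and 6.76% between the fusions. The 3 comparisons with empty vector share its 2 arrays. WIF1 entered the fit through empty vector and TET1-CDwt alone, so nothing is read from its place in this count.

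The members were then set beside 110 genes of the pathway, the members included, sorted into 7 lists of destruction complex, secreted antagonists, intracellular and nuclear inhibitors, ligands and their secretion, receptors and transducers, transcription factors and coactivators, and target genes. Of the 110, 78 were well above background on all 8 arrays, 12 on 1 to 7, and 20 on none. Of 17 secreted antagonists only 7 could be counted, against all 13 genes of the destruction complex.

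In MBD-TET1-CDwt 5 of the 82 counted genes were at least 2-fold above empty vector, or 6.1% against 1.56% of all genes, and 0 were 2-fold lower. APC2 was chosen on this comparison, and without it the count was 4 of 81, or 4.94%. Beside APC2 and SFRP1 these were FZD8 and FZD1, which are Frizzled receptors, and SP5, a transcription factor gene that responds to Wnt signals. FZD8 gave -0.58 and -0.03 in MBD-TET1-CDwt, -1.80 and -1.74 in empty vector, and -0.77 and -1.49 in MBD-TET1-CDmut. Its mean was 2.76-fold that in empty vector (limma adjusted p = 0.399, the lowest of the list) and 1.77-fold that in MBD-TET1-CDmut (limma adjusted p = 0.7). FZD1 was 2.02-fold above empty vector in MBD-TET1-CDwt (limma adjusted p = 0.754) and 1.77-fold in MBD-TET1-CDmut (limma adjusted p = 1), and the clones of the fusions overlapped (limma adjusted p = 0.946 between them). SP5 was 2.18-fold above empty vector in MBD-TET1-CDwt and 1.15-fold in MBD-TET1-CDmut (limma adjusted p = 0.812 and 1). For FZD8, FZD1, and SP5 both MBD-TET1-CDwt clones were above both controls. None of these genes passed the test.

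limma called 0 of the 83 list genes in the fit in MBD-TET1-CDwt against empty vector, and 9 had an unadjusted p under 0.05, 6 higher and 3 lower. Without APC2, which was chosen on this comparison, these were 8 of 82 genes, or 9.76% against 6.29% of all genes. Beside FZD8, FZD1, and WIF1, from whose test nothing is read, they were WNT5A, FZD7, TCF7L2, CCND1, and MYC, named here after their values were seen. WNT5A, a Wnt ligand, gave 0.78 and 0.72 in MBD-TET1-CDwt, -0.09 and 0.18 in empty vector, and 0.27 and 0.15 in MBD-TET1-CDmut (limma adjusted p = 0.564 against empty vector and 0.674 against MBD-TET1-CDmut). Both MBD-TET1-CDwt clones were the higher ones in each comparison. FZD7, a Frizzled receptor, was 1.60-fold above empty vector in MBD-TET1-CDwt and 1.47-fold in MBD-TET1-CDmut (limma adjusted p = 0.648 and 1), and TCF7L2, a TCF factor, was 1.77-fold and 1.22-fold above it (limma adjusted p = 0.757 and 1). CCND1, a cyclin gene and Wnt target, gave -1.90 and -2.30 in MBD-TET1-CDwt, -1.22 and -1.49 in empty vector, and -1.26 and -1.30 in MBD-TET1-CDmut (limma adjusted p = 0.562 against empty vector and 0.508 against MBD-TET1-CDmut). Here both MBD-TET1-CDwt clones were the lower ones. MYC, another target, gave 3.05 and 3.97 in MBD-TET1-CDwt and 3.49 and 3.62 in MBD-TET1-CDmut, below 4.49 and 4.14 in empty vector (limma adjusted p = 0.744 and 1). Over the 13 counted target genes the median difference in MBD-TET1-CDwt was 0.09, beside 0.01 over all genes.

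In TET1-CDwt 0 of 82 list genes were 2-fold higher (all genes 0.349%) or lower (all genes 0.391%) than in empty vector. limma called 0, and 0 had an unadjusted p under 0.05 (all genes 1.85%). In MBD-TET1-CDmut 1 of 83 was 2-fold higher, SFRP1, or 1.2% against 0.492% of all genes, and 0 were lower (all genes 0.373%). limma called 0, with 3 at an unadjusted p under 0.05, or 3.66% of the list without APC2 against 2.12% of all genes. Named after their values were seen, these were WNT2B (1.93-fold) and FZD7, which were higher, and MYC, which was lower. Between the fusions APC2, which was chosen on the same MBD-TET1-CDwt arrays, was the only one of 82 genes at least 2-fold higher (all genes 1.62%). HBP1, a repressor of TCF-dependent transcription, was the only one lower (all genes 1.39%), by 2.26-fold, at -3.45 in MBD-TET1-CDwt #3 and -1.66 in #10 against -1.37 and -1.38 (limma adjusted p = 0.742). limma called 0 of the list between the fusions, with 6 beside APC2 at an unadjusted p under 0.05, or 7.32% against 6.76% of all genes. In the active fusion FZD8, WNT5A, and FZD3 were the higher ones of these, and CCND1, TNKS2, and WNT2B the lower ones. WNT2B, 1.96-fold lower (limma adjusted p = 0.605), was well above background in only 1 MBD-TET1-CDwt clone. Against empty vector, the list had a median difference of 0.11 in MBD-TET1-CDwt (all genes 0.01), of 0.12 with TET1-CDwt (all genes -0.00), and of 0.06 with MBD-TET1-CDmut (all genes -0.01).

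Some calls in the list depended on single clones. Without MBD-TET1-CDwt #3, #10 alone stood for the construct and was assumed to vary like the other groups. SOST then entered the fit through #10 alone, the array on which it was high, so nothing is read from its limma call. Nothing is read from the call of APC2 either, because it was chosen on these arrays. SOST, which encodes the LRP antagonist sclerostin, was not well above background on any array of empty vector or MBD-TET1-CDmut. With these at the detection floor SOST was at least 1.73-fold higher in #10 than in empty vector and at least 1.33-fold higher than in MBD-TET1-CDmut. With both clones SOST was not in the fit, because it was well above background in #10 at -5.12 and not in #3 at -7.19. Without MBD-TET1-CDwt #10, HBP1 differed from MBD-TET1-CDmut by -2.07. This value rests on #3 alone, at -3.45, whereas #10 gave -1.66. The assumption that #3 varies like the other groups was not tested, and nothing is read from the limma call of HBP1.

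The genes whose pattern over the 8 arrays was closest to that of APC2 were SPMIP6, ACKR3, MAGEA12, TPM2, and GSTT2B. Likeness was the root mean square difference between log2 profiles that were each centered on their own mean, over 14385 genes. It was 0.332 for SPMIP6, 0.347 for ACKR3, 0.366 for MAGEA12, 0.405 for TPM2, and 0.454 for GSTT2B, with 1.562 as the median over all genes. A flat profile lies 1.542 from APC2, so this median mostly reflects the size of the APC2 pattern itself. Pearson's r with APC2 over the 8 arrays was 0.960 to 0.986, carried by the same 2 MBD-TET1-CDwt arrays, and is given as a description only. In each of the 5 genes MBD-TET1-CDwt #10 was the highest array and #3 the next, as for APC2. This follows from picking the genes by likeness to APC2 on the same arrays. TPM2, a tropomyosin gene, gave 2.05 in #3 and 3.91 in #10 against 0.06 to 0.80 elsewhere. MAGEA12, a cancer-testis antigen gene, gave -3.86 and -0.71 against -5.53 to -5.00 elsewhere. ACKR3, which encodes an atypical chemokine receptor, and GSTT2B, a glutathione transferase gene, were well above background on the MBD-TET1-CDwt arrays alone. Both entered the comparison through that group alone, and their likeness to APC2 on the other arrays rests on signals not well above background.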

How the data were processed

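Total RNA of 8 stable HEK293T lines was labeled with Cy3 and hybridized to 8 single-color Agilent arrays, 1 per clone and 2 clones per vector. The authors deposited, for each spot, an intensity from Agilent Feature Extraction (10.7.3.1 per the file headers, 9.5.1 per the submitters' processing notes), after its background subtraction and without scaling between arrays. The deposited series table holds the same intensities. The normalization and test used by the authors are not given in the sources used here, and coordinates of the array design were not used.

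Control spots were dropped, as were the 213 to 269 outlier-flagged spots of each array, and spots of a probe were averaged. The 75th percentile of the array's probes was subtracted from the log2 signal. A probe counted as well above background where more than 50% of its spots were. Symbols came from RefSeq (GRCh38.p14) through the transcript accession for 25422 probes (74.5%).

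limma 3.58.1 (R 4.3.3) was run two-sided on a model of 4 group means for the 8 arrays (4 residual degrees of freedom). It covered the 22530 probes for which some group had both of its arrays well above background, with Benjamini-Hochberg adjustment over all of them. The fit was also run on simulated data with the same spread in all groups, which cannot show whether the real groups vary alike. Genes were counted as at least 2-fold different on their brightest probe where both arrays of the higher group were well above background. In the lower group, a dim signal was raised to the detection floor of its array (the lowest signal that was well above background there), and a fold against such a group is a lower bound, written as at least. Promoter windows and figures were handled in Python 3.11.15 with matplotlib 3.10.9.

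The members, the Wnt lists, and the tests were chosen with earlier results of these data known. Genes named are the 10 members, the list genes called by limma or among the up to 8 largest 2-fold differences in each direction of each comparison, the 5 genes closest to APC2 in pattern, TET1, and MBD2, with exceptions stated. Alternatives were normexp background correction (offset 50, on median signals, since mean signals were not used here), quantile and median scaling, other filters, floors, probes, priors, and thresholds, and leaving out each clone. The number of arrays limits the precision, and p-values measure the spread between clones.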

Additional observations from a re-analysis of the deposited data

How the results depend on the processing

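No paired analysis was possible because the clone numbers only name independently isolated colonies, and groups that were compared share fewer than 2 of them. APC2 was chosen on MBD-TET1-CDwt against empty vector, so its direction there is no sign of stability. Its difference was 2.06 under normexp and 2.09 to 4.79 with a clone left out, and 1.82 to 4.52 against MBD-TET1-CDmut. normexp also moved the median of all tested probes, to -0.38 for MBD-TET1-CDwt, -0.43 for TET1-CDwt, and -0.19 for MBD-TET1-CDmut against empty vector and to -0.21 between the fusions, and its counts and signs are to be read relative to that shift. The number of list genes at least 2-fold above empty vector in MBD-TET1-CDwt, 5 in the report, was 2 under normexp, 2 where every clone had to pass, 1 at 5-fold, and 4 to 11 with a clone left out (11 without MBD-TET1-CDwt #3), and the number lower, 0 in the report, was 6 under normexp and 0 to 4 with a clone left out (4 without MBD-TET1-CDwt #10). In TET1-CDwt 2 genes were higher under normexp, 1 under quantile scaling, 1 under median scaling, and 0 to 4 with a clone left out (4 without #5, 3 without #2, 2 without empty vector #2), and 12 were lower under normexp and 0 to 1 with a clone left out (1 without #2 or without empty vector #2). In MBD-TET1-CDmut the count of 1 higher became 0 under normexp, 3 under quantile scaling, 2 under median scaling, 0 at 5-fold, and 1 to 5 with a clone left out (5 without empty vector #2 or without #10, 2 without empty vector #1 or without #9), with 0 to 1 lower (1 without empty vector #2). Between the fusions the count of 1 lower became 0 under normexp, 2 with any probe, 0 where every clone had to pass, 0 at 5-fold, and 1 to 6 with a clone left out (6 without MBD-TET1-CDwt #10, 3 and 2 without MBD-TET1-CDmut #10 and #9), and 1 to 8 were higher with a clone left out (8 without MBD-TET1-CDwt #3, 4 without its #10, 3 without either MBD-TET1-CDmut clone). The cause of these moves was not tested. limma called 0 list genes in all 8 other settings. Calls with a clone left out rest on 1 clone in a group, and nothing is read from those of SFRP2, SOST, APC2, and HBP1. Of 224 differences of member probes under another background correction or scaling or with outlier-flagged spots kept, 185 kept their sign, 39 turned, and 0 of 176 tested were called. Of 448 with a clone left out, 412 kept their sign and 36 turned. Many of the 448 left out a clone of a group outside the comparison, which cannot change the difference. The share that kept its sign is therefore no measure of stability. The members called there were SFRP2, which entered the fit through its 1 high array alone, and APC2, which was chosen on those arrays. Members near the detection floor (SFRP2, WIF1, and the dimmer APC and DKK3 probes) are limited by signal over background.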
